A study of Mus musculus with 3 samples.

Results

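The genes that build platelet granules and load the dense granules were examined as a list of 33 symbols: factors of alpha granule formation, the subunits of the tethering complex HOPS, Lyst, the subunits of BLOC-1, BLOC-2, BLOC-3 and the adaptor AP-3, and the transporters of the dense granule. The symbols were matched to mouse Entrez genes, and 30 of the 33 were among the 9822 genes of the tables; Bloc1s4, Hps6 and Slc17a9 were not. The RNA was that of purified blood platelets; the mice were BALB/c males, 20 weeks old and wild type for Nxf1, and 3 libraries formed 1 group, called replicates 1, 2 and 3 here. Each library was also a batch of its own in the labels, so animal and batch cannot be told apart. The labels call the samples independent without tying each to an animal, so every SD and p-value here covers only how these libraries differ, part of which may be technical.

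Platelets carry alpha granules, which hold adhesive proteins and growth factors, and dense granules, which hold serotonin, ATP, ADP and calcium. Both form in the megakaryocyte, the parent cell, from endosomal compartments. Dense granules are lysosome-related organelles, and loss of BLOC or AP-3 subunits in mice and people gives Hermansky-Pudlak syndrome, with pigment loss and bleeding. Loss of NBEAL2 gives the gray platelet syndrome, in which alpha granules are lacking. A platelet has no nucleus, so its RNA is what the megakaryocyte passed on and what has not yet decayed.

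Total counts were 26974129, 25189231 and 26111636 in replicates 1, 2 and 3. All 8 platelet markers were present, with summed levels of 33270, 34830 and 35610 CPM (each count divided by its library total, times 1000000). Red cell markers were far higher in replicate 1 (48710 CPM) than in replicates 2 and 3 (5215 and 6800 CPM; 7 of 9 markers present). B cell markers were highest in replicate 3, at 145, 134 and 226 CPM (5 of 5 present), as were T cell markers, at 10.8, 12.9 and 19.8 CPM (3 of 4 present, Cd3e not). Neutrophil and monocyte markers summed to 1295, 1530 and 1379 CPM, with Ly6g not in the tables. None of 7 mast cell and basophil markers, cells that also use Slc6a4 and Slc18a2, was in the tables. Counts per gene differed between every pair of libraries by more than sampling noise (chi-square divided by its degrees of freedom, 17.9 to 104).

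The RNA of this machinery was dominated by 1 gene. Slc6a4, the serotonin transporter, gave 79.5% ± 0.637 (SD, n = 3) of all counts of the 30 genes, whose summed level was 1053 ± 76.8 CPM. The other 29 genes together reached 216 ± 22.1 CPM. Levels of different genes are compared below per length, as CPM per kilobase of the gene length given in the tables. On that scale the median of the 30 genes was 1.90 ± 0.395 (SD, n = 3), against 1.48 ± 0.221 for all genes in the tables. Of the 30 genes, 18 lay above and 12 below the median of all genes, and only Slc6a4 and Bloc1s1 were above the level of 6.24 that marks the upper quartile of all genes. By reads, 26 of 30 reached 1 CPM in all 3 libraries, 86.7%, beside 77.7% of all genes in the tables. The count was 14 at a minimum of 5 CPM, 46.7% beside 40.7%. In bulk RNA, fewer cells of a type and less RNA per cell cannot be told apart.

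**Figure D1:**
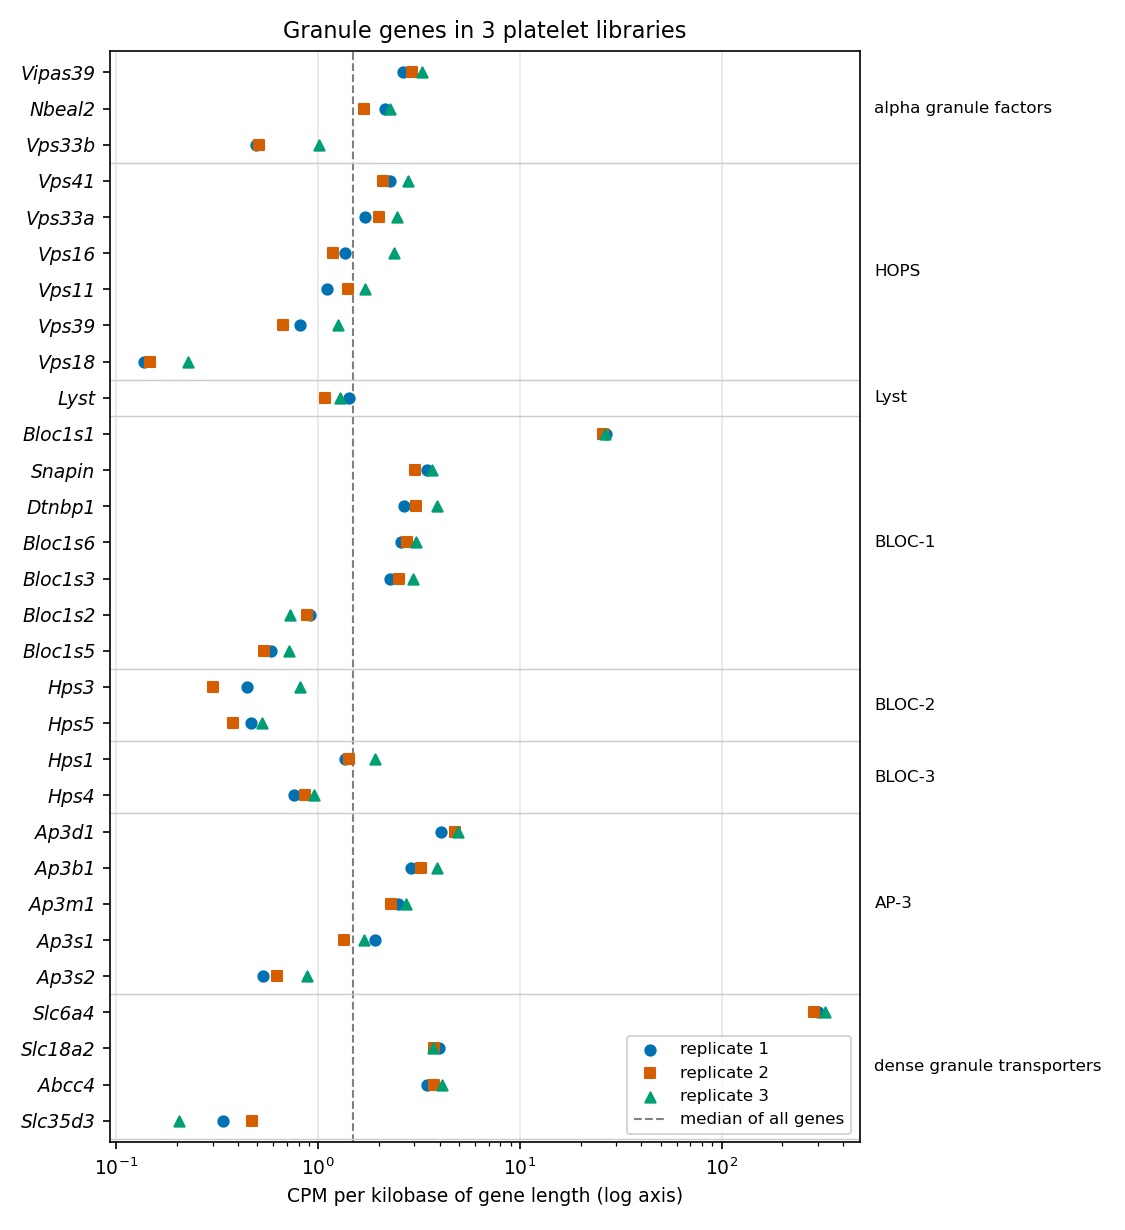
Level of each of the 30 genes in CPM per kilobase (log axis) in replicates 1 to 3, grouped by complex or class; the dashed line is the median of all genes. Slc6a4 (288 to 327) and Bloc1s1 (25.8 to 26.8) stand apart to the right, and Vps18 (0.137 to 0.227) is lowest.

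Dense granule transporters spanned the widest range of any class. Slc6a4 (chromosome 11, 76998597 to 77032343 in GRCm38), which takes up serotonin from plasma across the platelet membrane, stood at 821, 792 and 898 CPM in replicates 1, 2 and 3, or 299, 288 and 327 CPM per kilobase. It was higher than 97.9% of all genes per length and 11.6 times the next gene of the list. Slc18a2 (chromosome 19, 59260878 to 59296012), the vesicular monoamine transporter that moves serotonin from the cytosol into the granule, stood at 15.1, 14.3 and 14.1 CPM, or 3.96, 3.77 and 3.70 CPM per kilobase. These 3 values lay close together, and no library brought the 2 genes near each other. Per length Slc6a4 was 80.0 times Slc18a2, a log2 ratio of 6.24, 6.26 and 6.47; with GENCODE coding lengths the mean log2 ratio was 5.57 in place of 6.32. Abcc4, an ATP-driven pump linked to nucleotide storage in dense granules, stood at 20.5, 22.1 and 24.2 CPM, or 3.48, 3.74 and 4.11 CPM per kilobase, and so overlapped Slc18a2 per length.

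Slc35d3, a member of the nucleotide sugar transporter family whose loss in mice gives abnormal dense granules, was among the lowest genes of the list. It had 24, 31 and 14 counts in replicates 1, 2 and 3, which is 0.890, 1.23 and 0.536 CPM. The exact 95% Poisson interval was 0.836 to 1.75 CPM in replicate 2 and 0.293 to 0.900 CPM in replicate 3, and covers counting error only. It was lowest in replicate 3, opposite to most of the list, and only replicate 2 reached 1 CPM. Slc17a9, the vesicular nucleotide transporter, had no row in the tables, so its level was not analysed here.

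The windows upstream of the serotonin genes are shown because these genes act in series on the same molecule and had the largest ratio of the gene pairs compared. Each is the 250 bases before the annotated start, from RefSeq on GRCm38.p6, 5′ to 3′ on the strand of the gene, and capitals mark GATAA or its reverse complement TTATC, the core bound by GATA factors. The Slc6a4 window is chr11:76998347-76998596 on the + strand and the Slc18a2 window chr19:59260628-59260877 on the + strand.
Slc6a4: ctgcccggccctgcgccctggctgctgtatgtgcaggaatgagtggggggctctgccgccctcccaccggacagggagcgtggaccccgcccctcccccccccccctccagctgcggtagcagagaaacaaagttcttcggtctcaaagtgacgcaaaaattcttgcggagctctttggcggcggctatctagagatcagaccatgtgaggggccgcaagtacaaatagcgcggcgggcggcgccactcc
Slc18a2: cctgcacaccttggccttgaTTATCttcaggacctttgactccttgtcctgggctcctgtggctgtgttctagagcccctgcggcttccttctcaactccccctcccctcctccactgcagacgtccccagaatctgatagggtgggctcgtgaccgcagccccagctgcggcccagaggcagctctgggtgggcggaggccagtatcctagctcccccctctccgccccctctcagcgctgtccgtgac
The Slc18a2 window held 1 match, starting 230 bases before the start, and the Slc6a4 window held none. That says only that these letters are not in this window.

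Such windows were searched for 26 of the 33 genes, 29 windows in all, since Vipas39, Abcc4 and Hps1 each have a second start. None was searched for Slc17a9, Snapin, Bloc1s6, Vps11, Ap3s1, Vps33b or Vps39. The shares below leave these genes out, and the comparison with all windows does not allow for this gap. The start used can be an inner one: 17 of the 29 windows reach into the annotated span of their gene, so a match need not lie upstream of the gene. Both serotonin gene windows end at the outermost start. GATAA was found on either strand in 10 of 29 windows (34.5%), beside 22.6% of all 32851 windows and 14.8% of the 9753 windows of genes in the tables. The motif TGTGGT of RUNX factors was in 13.8%, beside 14.0% and 10.6%, and CCGGAAG of ETS factors in 10.3%, beside 6.9% and 14.2%. The E-box CACGTG, which is the core of the motif bound by TFEB and its relatives in lysosomal genes and reads the same on both strands, was in 7 of 29 windows (24.1%), beside 6.0% of all windows and 8.3% of those of genes in the tables. In the last 100 bases before the start used it was in 5 of 29 windows (17.2%), beside 3.2% and 4.5%. The median GC content of the windows was 62.4%, beside 52.4% for all windows and 60.0% for genes in the tables. Motifs were chosen with the levels known and the shares carry no test; a match is not evidence of binding.

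Of the 5 genes with an E-box in those 100 bases, only Vps16 and Bloc1s1 had it before the annotated gene, and their stretches are printed to show how close to the gene it lay, with the E-box in capitals. They are Vps16 (chr2:130424220-130424319, + strand) and Bloc1s1 (chr10:128923525-128923624, - strand).
Vps16: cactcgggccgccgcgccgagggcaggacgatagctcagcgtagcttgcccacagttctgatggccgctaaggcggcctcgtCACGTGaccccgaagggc
Bloc1s1: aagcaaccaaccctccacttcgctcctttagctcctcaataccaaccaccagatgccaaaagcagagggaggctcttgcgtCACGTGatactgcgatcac
The first base of the E-box lay 18 bases before the start in Vps16 and 19 bases before it in Bloc1s1. In Hps3, Vps33a and Bloc1s3 the window reached 24, 28 and 10 bases into the gene span, and the E-boxes, 2 of them in Vps33a, lay within that part. The E-box with GT before it and AC after it, the palindrome at the core of the CLEAR element of lysosomal genes, was found in Vps16 and Vps33a, 2 of 29 windows (6.9%), beside 0.2% of all windows and 0.6% of those of genes in the tables. Vps16 and Bloc1s1 differed in level, at 1.65 ± 0.648 and 26.4 ± 0.478 CPM per kilobase (SD, n = 3). The Hps5 window held E-boxes 227 and 192 bases before the start used, and its last 184 bases lay in the gene span. Both E-boxes thus lay before the annotated gene, the second just before it. The Abcc4 window held an E-box inside the gene span.

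Among the alpha granule factors, Nbeal2 (chromosome 9, 110624789 to 110654161), the large BEACH domain protein lost in gray platelet syndrome, stood at 18.9, 14.9 and 20.0 CPM in replicates 1, 2 and 3, or 2.15, 1.69 and 2.28 CPM per kilobase. Vps33b (chromosome 7, 80269621 to 80291579), a Sec1/Munc18 family protein, and its binding partner Vipas39 act together, and loss of either gives the ARC syndrome. Vps33b stood at 1.26, 1.31 and 2.60 CPM, from 34, 33 and 68 counts, and Vipas39 at 7.16, 7.90 and 8.88 CPM. Per length Vipas39 was above Vps33b in all 3 libraries, with a log2 ratio of Vps33b to Vipas39 of -2.22 ± 0.45 (SD, n = 3). Replicate 3 had the highest Vps33b level, 2.07 times that of replicate 1.

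HOPS tethers late endosomes and lysosomes before fusion. Its core of Vps11, Vps16, Vps18 and Vps33a is shared with the early endosome complex CORVET, and Vps39 and Vps41 are its own. Per length the 6 genes ran over a 14.0-fold range of means. Vps41 was highest at 2.27, 2.09 and 2.80 CPM per kilobase, followed by Vps33a, the gene of the buff mouse, at 1.70, 2.00 and 2.46, Vps16 at 1.36, 1.19 and 2.39, and Vps11 at 1.11, 1.41 and 1.70. Vps41 and Vps33a overlapped across libraries, as did Vps16 and Vps11. By reads Vps33a had the higher mean, 8.45 CPM against 7.63 CPM for Vps41, so the order of Vps41 and Vps33a depends on the length used.

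Vps39 was lower, at 0.816, 0.669 and 1.25 CPM per kilobase, and gave a log2 ratio to Vps41 of -1.43 ± 0.24. Vps18, a RING domain subunit of the core, was lowest at 0.137, 0.147 and 0.227 CPM per kilobase. It had 15, 15 and 24 counts, below 1 CPM in every library. Vps33a stood above its paralog Vps33b in all 3 libraries, with a log2 ratio of Vps33b to Vps33a of -1.68 ± 0.36. All 6 HOPS genes were highest in replicate 3, with plain totals, beside 68.7% of all genes, and after TMM scaling (edgeR's trimmed mean of M-values), beside 45.3%.

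Lyst (chromosome 13, 13590311 to 13778803), the gene of the beige mouse and of Chediak-Higashi syndrome, whose loss enlarges lysosomes and depletes dense granules, stood at 16.8, 12.8 and 15.2 CPM. Its transcript is the longest of the list, so per length it reached only 1.42, 1.08 and 1.29 CPM per kilobase. Nbeal2, which shares the BEACH domain, was above Lyst in all 3 libraries, with a log2 ratio of 0.69 ± 0.12 (SD, n = 3).

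BLOC-1, the octameric complex that sorts cargo from endosomes to lysosome-related organelles, held the most uneven set of subunits. Bloc1s1 (chromosome 10, 128919914 to 128923524) stood at 26.8, 25.8 and 26.5 CPM per kilobase, 7.80 times the next subunit. The size of this lead depends on the length used, which is 550 bases for Bloc1s1 and 3494 for Bloc1s6. By reads their means were 14.5 and 9.74 CPM. With plain totals Bloc1s1 varied least of all 30 genes, with a coefficient of variation of 1.81% beside a median of 16.3% for all genes. With TMM scaling it did not: its ratio of highest to lowest library was 1.16, beside 1.05 for Slc6a4. Next in level came Snapin at 3.46, 3.03 and 3.66 CPM per kilobase, Dtnbp1 (dysbindin, the gene of the sandy mouse) at 2.66, 3.06 and 3.89, Bloc1s6 (pallidin, the gene of the pallid mouse) at 2.57, 2.75 and 3.05, and Bloc1s3 at 2.28, 2.51 and 2.94. Of those 4 subunits, Snapin and Bloc1s3 did not overlap across libraries and all other pairs did; Bloc1s1 overlapped none.

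A lower pair of BLOC-1 subunits was formed by Bloc1s2 and Bloc1s5 (muted). Bloc1s2 stood at 0.908, 0.884 and 0.725 CPM per kilobase, from 22, 20 and 17 counts, and Bloc1s5 at 0.587, 0.539 and 0.714, from 28, 24 and 33 counts. Bloc1s4 (cappuccino) was not in the tables. In GENCODE M21, Bloc1s4 and Hps6 are the 2 genes of the 33 whose longest coding transcript has 1 exon. That of Slc17a9, also absent from the tables, has 13. A link between exon number and absence was not tested.

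Bloc1s1, Bloc1s2 and Snapin are also subunits of BORC, the complex that positions lysosomes. The subunits found only in BORC were Borcs8 at 37.5 ± 2.77 CPM per kilobase (SD, n = 3), Borcs6 at 10.01 ± 1.06 and Kxd1 at 8.40 ± 1.01 among its 3 highest. The length of Bloc1s1 in the tables is 550 bases; in GENCODE M21, whose model is longer, 55.9% of its exonic bases overlap the gene Rdh5 on the same strand. Rdh5 itself was at 0.704, 0.198 and 0.306 CPM, against 14.7, 14.2 and 14.6 CPM for Bloc1s1. The share of reads lost or divided in this overlap was not tested.

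BLOC-2 was the lowest complex of the list. It acts after BLOC-1 in directing endosomal carriers to the maturing organelle. Hps3 (the gene of the cocoa mouse) stood at 0.442, 0.301 and 0.813 CPM per kilobase, from 55, 35 and 98 counts, and Hps5 (ruby-eye 2) at 0.463, 0.380 and 0.526, from 60, 46 and 66 counts. The 2 genes overlapped, and their log2 ratio was 0.08 ± 0.50, above 0 in 1 library and below 0 in the other two. The third subunit, Hps6 (ruby-eye), was not in the tables.

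BLOC-3 is the exchange factor that activates RAB32 and RAB38 and consists of Hps1 (pale ear) and Hps4 (light ear). Hps1 stood at 1.36, 1.43 and 1.91 CPM per kilobase and Hps4 at 0.756, 0.865 and 0.955. Hps1 was above Hps4 in all 3 libraries without overlap, with a log2 ratio of 0.86 ± 0.14. Of its substrates, Rab32 was at 3.63 ± 0.0628 CPM per kilobase (SD, n = 3) and Rab38 was not in the tables.

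AP-3, the adaptor that picks cargo at endosomes for lysosome-related organelles, was present with all 5 ubiquitous subunits. The large delta subunit Ap3d1 (the gene of the mocha mouse) led at 4.04, 4.78 and 4.95 CPM per kilobase, followed by the beta subunit Ap3b1 (pearl) at 2.90, 3.22 and 3.88 and the medium subunit Ap3m1 at 2.49, 2.30 and 2.73. Both were below Ap3d1 in every library, at log2 ratios of -0.47 ± 0.11 and -0.87 ± 0.18. With coding length in place of gene length the ratio of Ap3m1 to Ap3d1 turned to 0.55.

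Per gene length the small AP-3 subunits were lower, with Ap3s1 at 1.91, 1.34 and 1.68 CPM per kilobase and Ap3s2 at 0.530, 0.622 and 0.884. Both have a coding length of 579 bases, against 3597 for Ap3d1, so their place below it depends on the length used. Their log2 ratio was 1.29 ± 0.49 per length but -0.68 by reads or with coding length, because the lengths in the tables are 1479 and 5804 bases, so which paralog leads depends on the length used. Of the neuronal forms, Ap3m2 was at 0.534 ± 0.121 CPM per kilobase and Ap3b2 was not in the tables. In GENCODE M21, 29.8% of the exonic bases of Ap3m1 overlap Vcl, and 15.5% of those of Snapin overlap Ilf2, on the other strand in both cases. Vcl was at 205 ± 6.20 CPM and Ilf2 at 2.27 ± 0.585 CPM (SD, n = 3), and the strand setting of the counts is not given in the sources used here, so reads of Ap3m1 and Vcl cannot be told apart there.

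Compared by complex, the median level per length was highest for the transporters, BLOC-1 and AP-3 and lowest for BLOC-2, with an order among the first 3 that depends on the length used. The transporters present had a median of 3.79 ± 0.0953 CPM per kilobase (SD, n = 3), BLOC-1 of 2.79 ± 0.242, AP-3 of 2.50 ± 0.215 and the alpha granule factors of 2.04 ± 0.308. HOPS followed at 1.53 ± 0.449, Lyst at 1.26 ± 0.171, BLOC-3 at 1.21 ± 0.195 and BLOC-2 at 0.487 ± 0.167, beside 1.48 ± 0.221 for all genes. Of the 28 pairs of classes, 26 had the same order in all 3 libraries, and the order of Lyst changed against HOPS and against BLOC-3. How often other groups of genes keep their order was not counted. BLOC-1 was above BLOC-2 by a log2 difference of 2.57 ± 0.42, and above AP-3 by only 0.15 ± 0.11. The AP-3 median is Ap3m1 itself in every library, the gene that overlaps Vcl; without Ap3m1 it was 2.49. With 3 libraries, the smallest p that an exact two-sided test of flipped signs allows is 0.25, so these orders are given without a test. With GENCODE coding lengths, chosen after seeing the data, BLOC-1 (8.09) came before the transporters (7.47) and AP-3 (6.02), and BLOC-2 (0.723) stayed lowest. By reads, which do not compare levels between genes of unequal length, the class medians were 18.4 CPM for the transporters, 14.9 for Lyst, 11.1 for AP-3, 7.98 for the alpha granule factors, 4.92 for HOPS, 4.73 for BLOC-1, 3.38 for BLOC-3 and 2.29 for BLOC-2. The transporter median rested on Abcc4 and Slc18a2; the mean over the same 4 genes was 78.2, through Slc6a4.

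**Figure D2:**
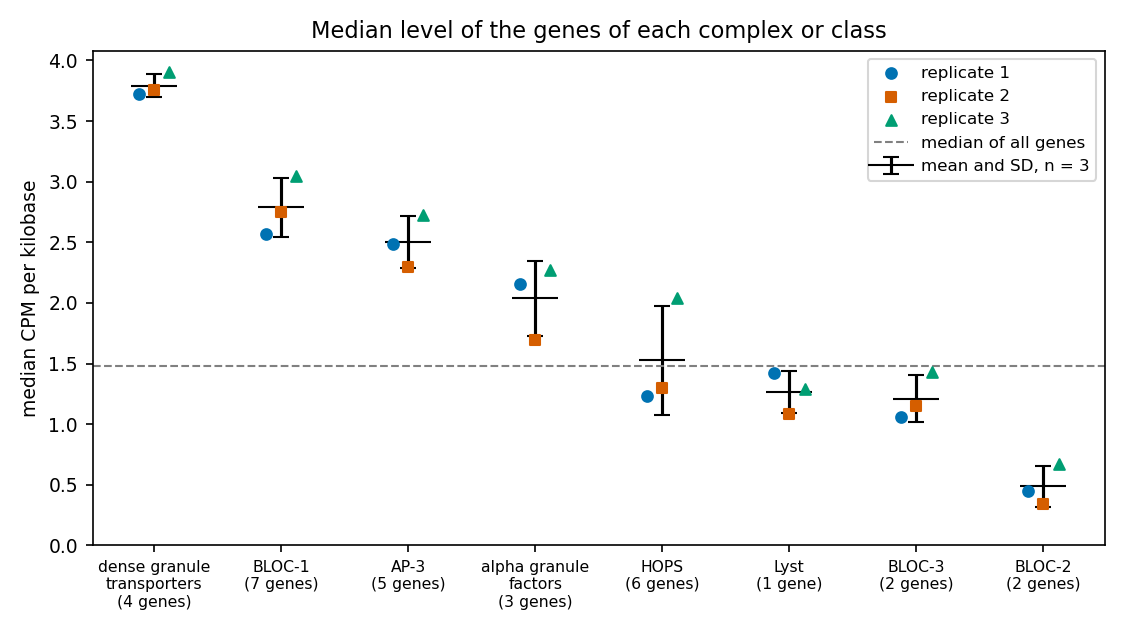
Median CPM per kilobase of the genes of each complex or class in replicates 1 to 3, with the mean and SD (n = 3); the dashed line is the median of all genes. The transporters (3.79), BLOC-1 (2.79) and AP-3 (2.50) lie highest and BLOC-2 (0.487) lowest.

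Ratios within a library do not depend on its total, and 10 of 13 chosen pairs could be computed. In 9 of the 10 the ratio kept its sign in all 3 libraries, the exception being Hps3 to Hps5. How often other gene pairs keep their sign was not counted, so this is not shown to be a trait of these pairs. The spread was smallest for Ap3b1 to Ap3d1 (SD 0.11), Nbeal2 to Lyst (0.12) and Slc6a4 to Slc18a2 (0.13). It was largest for Hps3 to Hps5 (0.50), Ap3s1 to Ap3s2 (0.49) and Vps33b to Vipas39 (0.45).

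**Figure D3:**
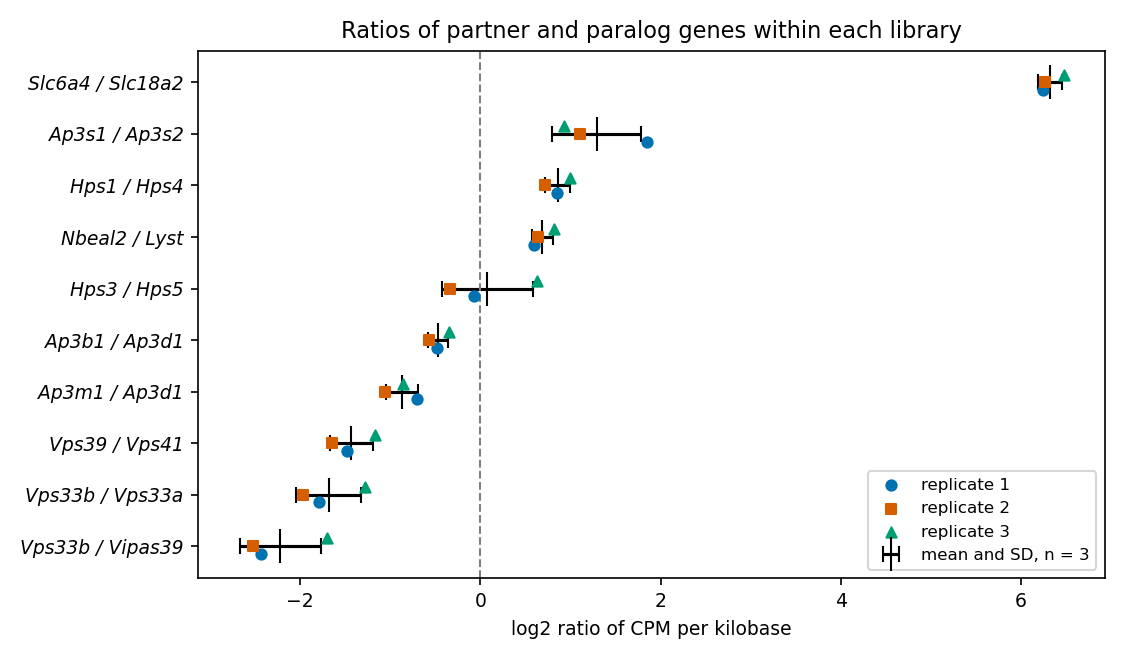
Log2 ratio of CPM per kilobase for 10 gene pairs, by library, with the mean and SD (n = 3); 0 means equal levels. Slc6a4 to Slc18a2 lies at 6.32, far from the other pairs, which run from -2.22 to 1.29.

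Between libraries, most genes of the list were highest in replicate 3 with plain totals, as were most genes of the tables, and under either rescaling the share was lower for both. With plain totals 24 of 30 genes were highest in replicate 3 (80.0%), beside 68.7% of all genes, and with TMM scaling 14 of 30 (46.7%), beside 45.3%. With DESeq2 size factors it was 13 of 30 (43.3%), beside 41.1%, and under both scalings the share was near that of all genes. The median of all genes per length was higher in replicate 3 than in the mean of the other two by 0.36 on the log2 scale, and by 0.17 after TMM scaling. B cell and T cell markers were also highest in replicate 3; their part in the levels of these genes was not tested. Lyst, Bloc1s1, Bloc1s2, Ap3s1 and Slc18a2 were highest in replicate 1 with plain totals (16.7% of the list, beside 15.5% of all genes; with TMM scaling 10 of 30, 33.3% beside 28.2%). Replicate 1 was the library with the most red cell RNA, whose part was likewise not tested.

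None of the 27 genes with a mean of at least 1 CPM varied between libraries beyond the trend of all genes (edgeR's quasi-likelihood dispersion, Benjamini-Hochberg adjusted p under 0.05), beside 0.229% of 8289 genes. The same test was run on simulated data in which every gene had the dispersion of the trend. It found 0 of 50 genes changed 2-fold in 1 library and 27 of 50 changed 4-fold. A change near 2-fold would thus mostly be missed. Only Hps3 had an unadjusted p under 0.05 in edgeR (adjusted p = 0.982), 3.70% of the 27 beside 4.29% of all genes tested. It stood at 2.04, 1.39 and 3.75 CPM, from 55, 35 and 98 counts. DESeq2's dispersion outliers held 0 of the 27. A ratio of highest to lowest library of at least 2 was seen in 4 genes with plain totals (13.3%, beside 13.1% of all genes): Hps3 (2.70), Slc35d3 (2.30), Vps33b (2.07) and Vps16 (2.01). With TMM scaling there were 2 (6.67%, beside 8.03%), Slc35d3 (2.62) and Hps3 (2.37), and Vps33b and Vps16 were below 2. In 22 of 30 genes the ratio was below 1.5 with plain totals, and the share of all genes below 1.5 was not counted. The median coefficient of variation was 15.1% for the 30 genes, near the 16.3% of all genes.

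**Figure D4:**
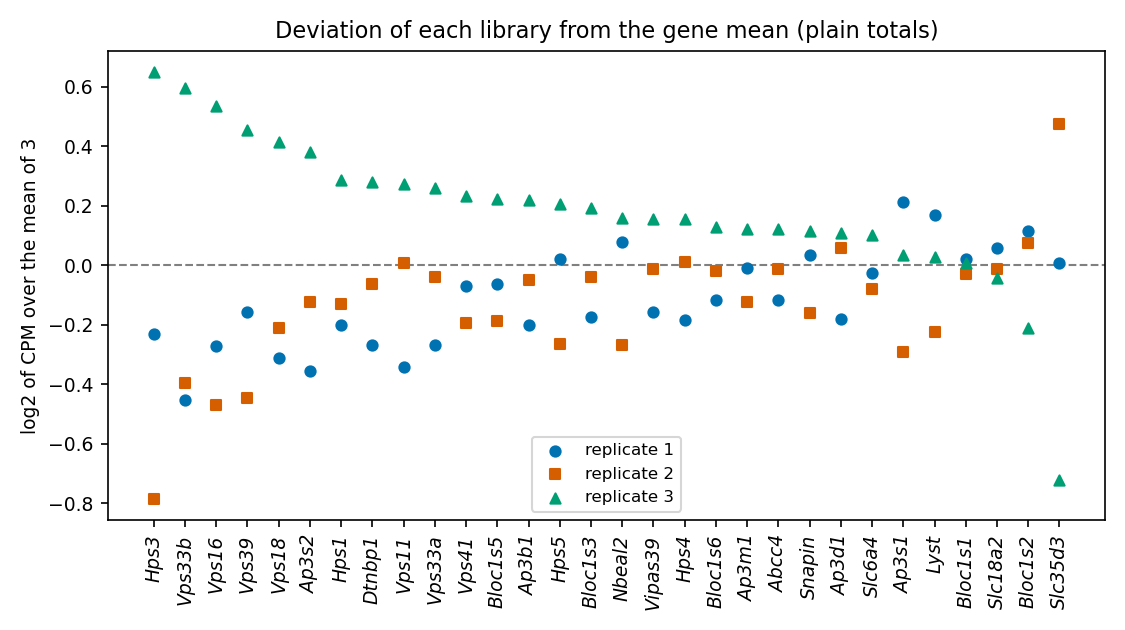
Log2 of the CPM of each library over the gene's mean of 3 libraries, for the 30 genes ordered by replicate 3, with plain totals. Replicate 3 is the highest for 24 genes, and Slc35d3 at the right end is lowest there.

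Other genes of granule formation and filling were taken from 8 lists with 108 symbols, of which 87 were in the tables, 78 reached 1 CPM in all 3 libraries and 0 of 81 tested varied beyond the trend (edgeR, adjusted p under 0.05; 3 at an unadjusted p under 0.05). The shares over all genes were 77.7% at 1 CPM, 0.229% varying beyond the trend and 4.29% at an unadjusted p under 0.05. The granule Rab GTPases and effectors had a median of 6.60 ± 0.229 CPM per kilobase (SD, n = 3). They were led by Sytl4, a Rab27 effector of granule release, at 204, 181 and 198 in replicates 1, 2 and 3, Rab27b, the main Rab of platelet granule secretion, at 66.7 ± 1.20 and the priming factor Unc13d at 53.8 ± 4.03. Rab27a was far lower at 0.686 ± 0.202. Sytl4, Rab27b and Unc13d were each above every BLOC, AP-3 and HOPS subunit in all 3 libraries.

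The vacuolar proton pump, whose gradient drives monoamine and nucleotide loading, had 19 of 25 symbols in the tables and a median of 8.76 ± 1.00 CPM per kilobase. It was led by Atp6v1f at 665 ± 24.9, Atp6v0e at 241 ± 10.3 and Atp6v0c at 67.1 ± 2.97. Among dense granule and lysosome membrane proteins (median 5.72 ± 0.0903), Lamp1 was at 331 ± 16.1, Lamp2 at 166 ± 13.1 and the two-pore channel gene Tpcn1 at 34.5 ± 2.35. Cd63, a tetraspanin used as a marker of dense granules, was at 5.33 ± 0.603.

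Clathrin and the other adaptors had a median of 3.60 ± 0.674 CPM per kilobase, led by the AP-2 subunits Ap2m1 at 268 ± 13.5 and Ap2s1 at 43.0 ± 2.78 and by Ap1s1 at 40.5 ± 2.04. BORC had a median of 8.40 ± 1.01. The CORVET and endosomal Rab list had 1.78 ± 0.212, with Rab5c at 113 ± 8.44, Rab7 at 65.1 ± 1.15 and Rab5a at 16.1 ± 0.163, while the CORVET subunits Vps8 and Tgfbrap1 were at 0.544 ± 0.208 and 0.423 ± 0.150, below Vps41 in all 3 libraries.

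The BEACH domain paralogs had a median of 1.15 ± 0.0470 CPM per kilobase. Wdfy4 had the highest mean at 2.70 ± 1.15, followed by Nsmaf at 1.65 ± 0.618 and Nbea at 1.16 ± 0.0593. Wdfy4 stood at 17.3, 22.4 and 38.6 CPM. With plain totals it was highest in replicate 3, as were the B cell markers and 68.7% of all genes. The part of B cells in its level was not tested. Alternative transporters and neuronal AP-3 subunits were lowest of the lists (0.553 ± 0.107), led by Abcc1 at 1.86 ± 0.310 and Slc35d2 at 0.960 ± 0.0877. The alternative vesicular monoamine transporter Slc18a1 and the noradrenaline transporter Slc6a2 were not in the tables, and the dopamine transporter Slc6a3 was at 1.78, 1.63 and 1.61 CPM.

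**Figure D5:**
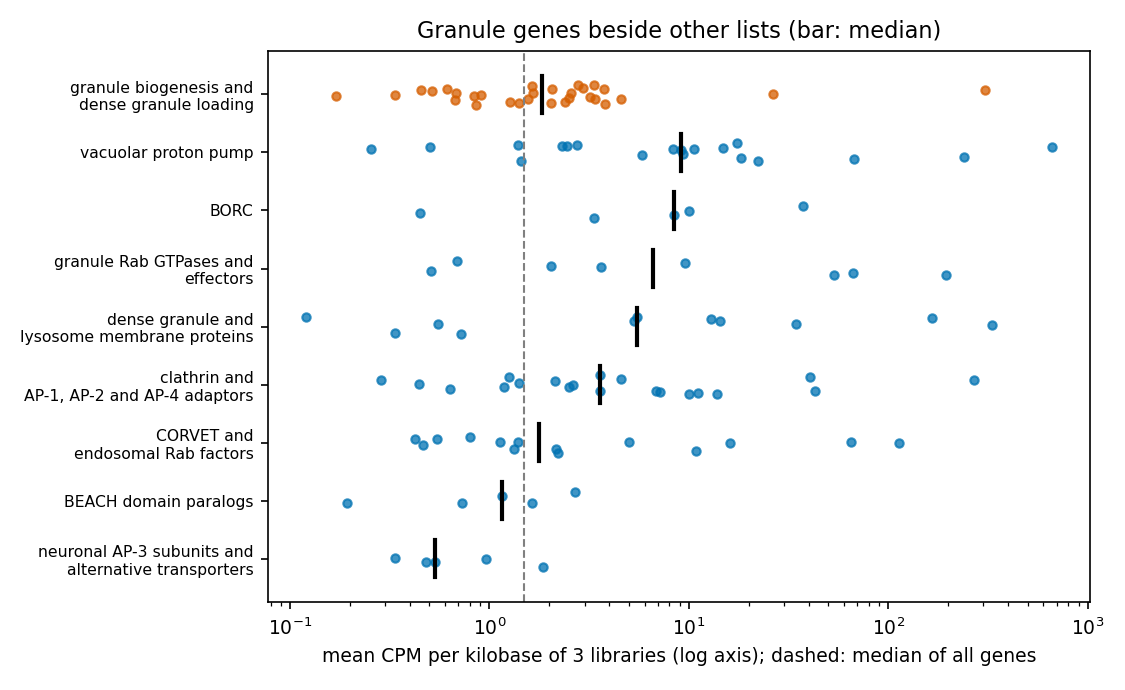
Mean CPM per kilobase of 3 libraries (log axis) for each gene of the granule list (orange) and of 8 other lists (blue); black bars are the medians of these means and the dashed line is the median of all genes. The proton pump and BORC lists have the highest medians, and in the granule list Slc6a4 (305) and Bloc1s1 (26.4) lie beyond the other genes.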

How the data were processed

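For each library the authors deposited raw counts, with the length of each Entrez gene beside them. The submitters' processing notes name CASAVA 1.8.2, Subread, featureCounts, edgeR 3.11.5 and build mm10; for their roles, strand, multi-mapping and the gene filter, settings were not given in the sources used here. Symbols and coordinates came from RefSeq for GRCm38.p6, the assembly of mm10, and exon structures from GENCODE M21. Members and lists were chosen with earlier results of these data known. The named genes were all 33 members and the 3 highest genes per length of each other list, with others named after their values were seen.

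CPM used the plain total of counts. The spread test was run in R 4.3.3 with edgeR 4.0.16 and limma 3.58.1, on an intercept-only model after TMM scaling (factors 0.954, 0.958 and 1.09) of genes with a mean of at least 1 CPM, with 2 residual degrees of freedom. It was tested on simulated data of 8289 genes with 1 library changed: it found 0 of 50 genes at 2-fold, 27 at 4-fold, 49 at 8-fold and 50 at 16-fold, and made 0 calls among 8089 unchanged genes. Every simulated gene had the dispersion of the fitted trend, without scatter around it. The simulation therefore cannot give the rate of false calls in these data, and the shares found may be too high for them. Alternatives, DESeq2 1.42.0 among them, are in the closing section. Other steps used Python 3.11.15, pandas 2.3.3, NumPy 2.4.6, SciPy 1.17.1 and matplotlib 3.10.9.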

Additional observations from a re-analysis of the deposited data

How the results depend on the processing

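No paired analysis was possible because the samples form 1 group. The number of genes at 1 CPM in all 3 libraries (26) became 14 at 5 CPM and stayed within 1.5 times at 0.5 CPM (30), per length (20) and with TMM scaling (26). With the 10 highest genes left out of the totals, the class medians rose to 3.58 CPM per kilobase (alpha granule factors), 2.69 (HOPS), 2.22 (Lyst), 4.91 (BLOC-1), 0.855 (BLOC-2), 2.13 (BLOC-3), 4.41 (AP-3) and 6.68 (transporters), since every level is scaled by a smaller total. A mean in place of the median gave 5.68 for BLOC-1 and 78.2 for the transporters, through Bloc1s1 and Slc6a4, and the absent transporter set at 0 gave 3.64. By reads, log2 ratios were -2.36 (Vps33b to Vps33a), -0.95 (Vps39 to Vps41), -0.70 (Ap3b1 to Ap3d1), 5.85 (Slc6a4 to Slc18a2) and 0.26 (Nbeal2 to Lyst), and Ap3s1 to Ap3s2 reversed to -0.68. With GENCODE coding lengths, an alternative chosen after seeing the data, they were -2.41, -1.01, -0.58 and 5.57 for the first 4 of these, and both Ap3s1 to Ap3s2 (-0.68) and Ap3m1 to Ap3d1 (0.55) reversed. The same lengths gave class medians of 8.09 (BLOC-1), 7.47 (transporters), 6.02 (AP-3), 1.62 (BLOC-3) and 0.723 (BLOC-2), so BLOC-1 came before the transporters. These shifts follow from the lengths alone. RefSeq coding lengths were not run. Leaving out 1 library at a time cannot move a mean of 3 libraries by more than their SD. For class medians and ratios it was therefore no check. The number of genes at 1 CPM in all libraries kept was 26, 27 and 26 without replicate 1, 2 or 3. No gene of the list varied beyond the trend under any of 7 settings, while the count over all genes (19) was 28 with DESeq2 size factors, 23 without a filter, 11 at a mean of 5 CPM and 49 as DESeq2 dispersion outliers, and 1, 29 and 32 without replicate 1, 2 or 3. Depth limits the low genes: 15 of 30 had a mean under 5 CPM, and counts ran from 14 to 23460. A mean of at least 5 CPM was reached by the other 15, beside 4351 of all 9822 genes, so low counts were not particular to the list.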
